A study of Mus musculus with 8 samples.

Results

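The 9 genes described here, Calb1, Itpr1, Car8, Pcp2, Pcp4, Rora, Foxp2, Skor2 and Ebf2, are used in the field as identity genes of Purkinje cells. They were taken by symbol from the 32285 features counted in every library, each symbol occurring once. Nuclei came from the paraflocculus/flocculus (PF/F), paired lobules of the vestibular cerebellum, at postnatal day 5.5. Of the 4 PF/F libraries, 2 were from WT mice and 2 from Tbx1+/- littermates, which carry 1 functional copy of the transcription factor gene Tbx1. Each library pooled nuclei of 5 mice, so the library was the replicate, and libraries with the same replicate number were taken as a batch. The mice were of both sexes on a C57BL/6J background. The authors' annotation places 48237 PF/F nuclei in 16 types, of which 1299 nuclei (2.69% of nuclei and 5.43% of their UMIs) are Purkinje nuclei. Purkinje nuclei numbered 299 and 297 in the WT libraries and 307 and 396 in the Tbx1+/- libraries. The 4 petrous temporal bone (PTB) libraries of the same study, 2 per genotype, were used only to set the genes beside a tissue whose annotation has no Purkinje type. Tbx1 itself was barely detected in the PF/F, with 4 and 10 UMIs in the WT and 11 and 13 UMIs in the Tbx1+/- libraries, so the labels could not be checked by it there. In the PTB it was at 38.9 and 39.4 CPM (depth-scaled UMI counts, defined with the levels) in WT and at 26.3 and 35.7 CPM in Tbx1+/- libraries.

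Purkinje cells are the large GABAergic neurons of the cerebellar cortex and its sole output. They are born before birth from Ptf1a-positive progenitors and, in the first postnatal week, settle into a monolayer while granule neurons are still being made above them. Several of the 9 genes handle calcium. Calb1 encodes calbindin, a cytosolic calcium buffer, Itpr1 the IP3 receptor that releases calcium from the endoplasmic reticulum, and Car8 a carbonic anhydrase-related protein without enzyme activity that binds this receptor. Pcp2 encodes a G-protein regulator known as L7, and Pcp4 a small protein that modulates calmodulin. Rora, Foxp2, Skor2 and Ebf2 act in the nucleus. Rora encodes the orphan receptor whose loss gives the staggerer mouse, Foxp2 a forkhead factor, Skor2 a transcriptional corepressor needed for Purkinje cell differentiation, and Ebf2 a helix-loop-helix factor of a subset of Purkinje cells.

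On GRCm38 (mm10), the build of the files, the genes differ in what overlaps them. Calb1 (ENSMUSG00000028222) spans chr4:15881264-15908064 on the plus strand and overlaps no other annotated gene. Car8 (ENSMUSG00000041261) spans chr4:8143362-8239041 on the minus strand and overlaps Gm11799 and Gm25355. Foxp2 (ENSMUSG00000029563) spans chr6:14901349-15441977 on the plus strand and overlaps Gm25470. Itpr1 (ENSMUSG00000030102) spans chr6:108213096-108551109 on the plus strand and overlaps 4 annotated genes, among them Gm44040 on the other strand. Rora (ENSMUSG00000032238) spans chr9:68653786-69388246 on the plus strand with Gm15511 opposite to it. Ebf2 (ENSMUSG00000022053) spans chr14:67233292-67430918 on the plus strand, with 5 annotated genes on the other strand. Pcp2 (ENSMUSG00000004630) is the shortest, at chr8:3623371-3625545 on the minus strand, and overlaps Pet100 on the other strand. Pcp4 (ENSMUSG00000090223), chr16:96467606-96525793, lies in the same strand's Igsf5. Exonic and intronic UMIs were counted together, and the setting of the count for strand is not given in the sources used here, so levels of overlapping genes are uncertain to that extent. In Purkinje nuclei Igsf5 held 17 UMIs, Pet100 508, Gm15511 1664 and Gm44040 6404. Opposite to Ebf2, which held 317 UMIs itself, 4930438E09Rik held 157, 1700120O09Rik 47, Gm6878 18 and Gm10860 5.

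RORA binds DNA at AGGTCA preceded by an AT-rich stretch, and its known targets in Purkinje cells include Pcp2 and Pcp4. Start-site windows of 3 of the 9 genes (Pcp2, Pcp4 and Rora) are held in the RefSeq table for GRCm38.p6, each from 250 bases before to 50 bases after a start, and were searched for AGGTCA on both strands. The letters occurred near 3 of the 4 annotated Pcp2 starts, in the Pcp4 window on the other strand, and not in the Rora window. The upstream Pcp2 starts share the same match, and the AT-rich stretch was not part of the search. Across all 32851 windows of this length in the table, 16.3% hold the letters, so a match is a description and not a binding site. The stretches with the match, 30 bases each, are shown because they are the only ones in these windows to hold it, with the letters searched, or their reverse complement, in capitals. The first runs on the minus strand of chr8:3625542-3625571, the second on the minus strand of chr8:3625045-3625074 and the third on the plus strand of chr16:96467430-96467459.
Pcp2, upstream starts: aaaggccttctcAGGTCAgagaccaggaga
Pcp2, downstream start: ggagtcaggggcAGGTCAgggaaggagact
Pcp4: tccttgctattgTGACCTgatcagccatga

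Levels are given as CPM, that is the UMIs of a gene in the summed nuclei of a type in a library, scaled so that all genes of that sum add to 1e6. Values are compared between types or genotypes for 1 gene, and not between genes, since they are not scaled for gene length. The types were clustered on the same nuclei and genes, so the level of a gene in Purkinje nuclei against other types is a description without a test. Library totals ranged from 44713226 to 60627200 UMIs over 10583 to 17103 barcodes, and any pair of PF/F libraries shared 50 to 85 barcodes, at most 0.614% of a library. Purkinje nuclei were deep, with a median of 5653 to 8533 UMIs per library against 2572 to 3483 in differentiated granule neurons. The authors corrected their own counts to lessen free RNA from broken cells. The values used here are without that correction and may hold such RNA.

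Of the 9 genes, 8 had their highest level in Purkinje nuclei among the 16 types, in each of the 4 libraries when set against the next type by mean level. Ebf2 did not, and it had the rank 5. How far Purkinje nuclei stood above the next type differed widely, from 15.5-fold for Car8 to 1.47-fold for Rora. For Skor2 it was 33.4-fold on 6 UMIs in the next type, a log2 ratio of 5.06 that became 7.60 without the 8% of nuclei with the highest UMIs. The share of a gene's UMIs in annotated nuclei that lay in Purkinje nuclei depends on all other types as well and gave a different order of the genes. Over the 4 libraries together it was 94.9% for Skor2, 76.7% for Car8, 75.9% for Itpr1, 51.1% for Calb1, 45.6% for Foxp2, 24.9% for Rora, 24.6% for Pcp2, 11.2% for Pcp4 and 9.47% for Ebf2. These shares leave out the unannotated PF/F barcodes, which held 876 UMIs of Skor2, 14002 of Car8 and 39415 of Itpr1. Purkinje nuclei held 1479, 21432 and 52695 UMIs of the same genes. The pooled share hides a difference between batches. For Pcp2, Purkinje nuclei held 731 of 4045 UMIs in WT and 631 of 3621 in Tbx1+/- replicate 1. In replicate 2 they held 626 of 1412 in WT and 828 of 2347 in Tbx1+/-. Of 6 further Purkinje markers that are not among the 9, only Ppp1r17, a phosphatase inhibitor, was highest in Purkinje nuclei, at 15.3 ± 4.17 CPM (SD, n = 4) against 2.26 CPM in immune cells. Lhx1, Lhx5, Gad1, Slc32a1 and Rgs8 were each higher in another type, such as GNPs for Lhx1 and differentiated GABA interneurons for Gad1.

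**Figure D1:**
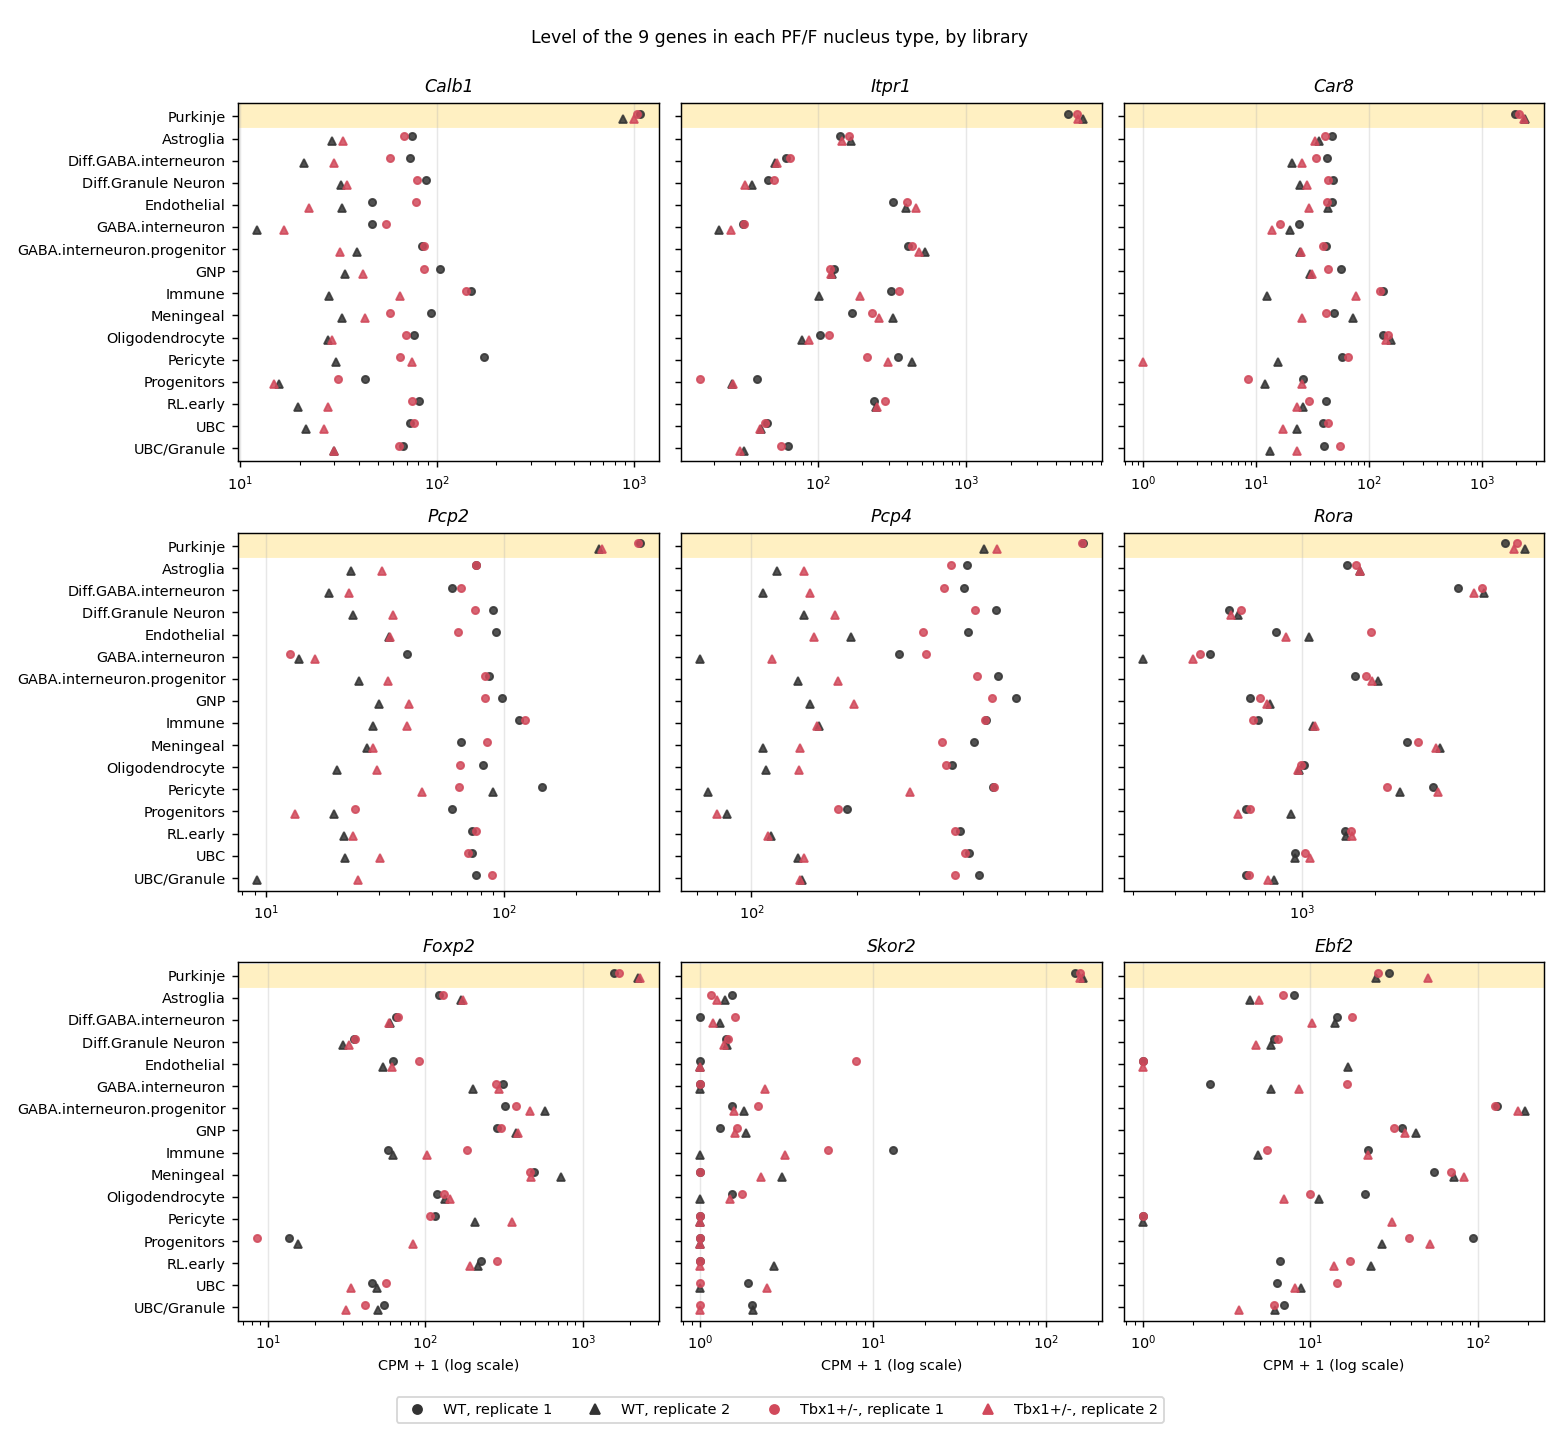
Level of each of the 9 genes in the 16 PF/F nucleus types, 1 panel per gene, as CPM + 1 on a log axis. Each point is a library, coloured by genotype with circles for replicate 1 and triangles for replicate 2, and the shaded row is the Purkinje type. Purkinje nuclei are highest for 8 genes, while Ebf2 is highest in GABA.interneuron.progenitor nuclei at 155 CPM.

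Among the calcium-handling genes, Itpr1 was at 4813 and 6051 CPM in the WT and at 5562 and 5646 CPM in the Tbx1+/- Purkinje nuclei. The mean of 5518 ± 516 CPM (SD, n = 4) was 11.9-fold above the GABA.interneuron.progenitor type, which at 462 ± 53.7 CPM (SD, n = 4) was in turn above endothelial cells, at 392 ± 55.4 CPM (SD, n = 4), in 4 of 4 libraries. Below these, endothelial cells and pericytes, at 321 ± 90.4 CPM (SD, n = 4), did not keep 1 order, with endothelial cells higher in 2 of 4 libraries. Car8 was at 1969 and 2426 CPM in WT and at 2146 and 2378 CPM in Tbx1+/- Purkinje nuclei. The next type was the oligodendrocyte, at 144 ± 9.41 CPM (SD, n = 4), and Purkinje nuclei were 14.7-fold to 16.9-fold above it in the 4 libraries. Oligodendrocytes were above the immune type, at 86.6 ± 55.9 CPM (SD, n = 4), in 4 of 4 libraries. The remaining types ranged from 46.3 CPM in meningeal cells to 17.1 CPM in the Progenitors type.

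Calb1, the gene most often used to mark these cells, was at 1075 and 880 CPM in WT and at 1040 and 1002 CPM in Tbx1+/- Purkinje nuclei. All other types held it at a low level, from 25.3 CPM in Progenitors to 94.4 ± 58.6 CPM (SD, n = 4) in immune cells. Purkinje nuclei were 7.27-fold to 32.5-fold above the immune cells in the 4 libraries. The immune type rested on 117 Calb1 UMIs and was above the pericytes, the next type, in 1 of 4 libraries, so the order below Purkinje nuclei was not fixed.

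Pcp2 was at 369 and 250 CPM in WT and at 364 and 255 CPM in Tbx1+/- Purkinje nuclei. It was 3.63-fold above pericytes, the next type, which held 17 Pcp2 UMIs in all, and 2.57-fold to 5.74-fold in the 4 libraries. Pcp4 was at 876 and 458 CPM in WT and at 871 and 499 CPM in Tbx1+/- Purkinje nuclei. It was 1.95-fold above GNPs, the granule neuron progenitors, at 347 ± 208 CPM (SD, n = 4), and 1.55-fold to 3.15-fold in the 4 libraries. In both genes the first value of each genotype was the higher, and the genotypes overlapped fully.

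This split by replicate number was shared by all other types. In each of the 15 types besides Purkinje, the mean level in the replicate 1 libraries was above that in the replicate 2 libraries for Calb1 (2.01 to 3.72 times), Pcp2 (1.56 to 5.15 times) and Pcp4 (2.12 to 3.45 times). In Purkinje nuclei the same ratios were 1.12, 1.45 and 1.83. Pcp4 in differentiated granule neurons, for example, was at 497 and 433 CPM in the replicate 1 libraries and at 140 and 172 CPM in the replicate 2 libraries. For Itpr1, Rora, Foxp2 and Skor2 the median ratio over the other types was between 0.923 and 1.12, and for Car8 and Ebf2 it was 1.65 and 1.22. The part of free RNA in these levels was not tested. After subtraction of the level in differentiated granule neurons of the same library, a step chosen after the data were seen, Pcp4 in Purkinje nuclei was at 318 to 438 CPM, Pcp2 at 221 to 289 CPM and Calb1 at 848 to 987 CPM in the 4 libraries. Mean Pcp4 was 310 CPM in granule neurons, but 131 and 190 CPM in Progenitors and GABA.interneuron nuclei, which are deeper. The value left therefore depends on the type chosen for subtraction.

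**Figure D2:**
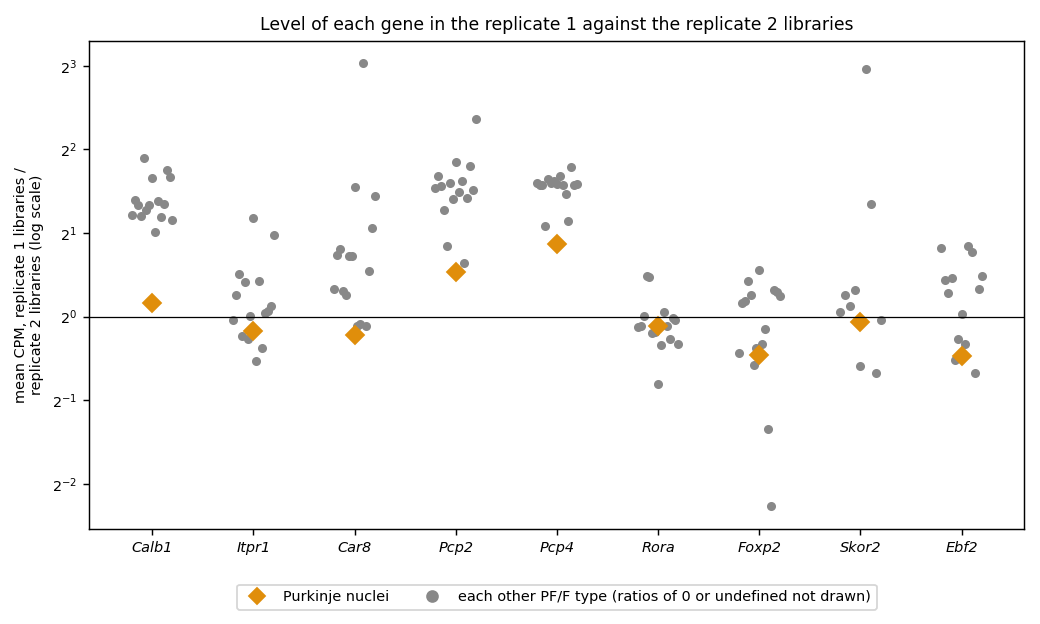
Mean CPM in the 2 replicate 1 libraries divided by that in the 2 replicate 2 libraries, on a log axis, for each gene in Purkinje nuclei (orange diamonds) and in each other PF/F type (grey circles). For Calb1, Pcp2 and Pcp4 all 15 other types lie above 1, with medians of 2.53, 2.91 and 3.00, and Purkinje nuclei lie closer to 1.

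Among the transcription regulators, Skor2 (ENSMUSG00000091519, chromosome 18, with no overlapping gene) had, over annotated nuclei, the largest share of its UMIs in Purkinje nuclei of the 9 genes. It was at 147 and 162 CPM in WT and at 157 and 156 CPM in Tbx1+/- Purkinje nuclei, a mean of 156 ± 6.18 CPM (SD, n = 4). The highest other type, the immune cells, held 6 Skor2 UMIs in 385 nuclei, and no other type exceeded 1.75 CPM by mean.

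Foxp2 was at 1591 and 2240 CPM in WT and at 1706 and 2306 CPM in Tbx1+/- Purkinje nuclei, here with the replicate 2 libraries higher. The next types were meningeal cells at 537 ± 125 CPM (SD, n = 4), GABA.interneuron.progenitor at 433 ± 111 CPM (SD, n = 4) and GNPs at 337 ± 51.0 CPM (SD, n = 4), and each stood above the following one in 4 of 4 libraries. Rora was at 6837 and 8298 CPM in WT and at 7696 and 7427 CPM in Tbx1+/- Purkinje nuclei. Differentiated GABA interneurons were close below at 5141 ± 548 CPM (SD, n = 4), and Purkinje nuclei were 1.40-fold to 1.56-fold above them in the 4 libraries. Meningeal cells, at 3236 ± 459 CPM (SD, n = 4), and pericytes, at 2970 ± 689 CPM (SD, n = 4), followed without a fixed order. The lowest level of Rora over the 16 types was that of the GABA.interneuron type, at 341 CPM, so the types annotated as GABAergic interneurons lay at both ends of the order.

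Ebf2 went against the label. It was at 28.3 and 23.5 CPM in WT and at 24.2 and 49.2 CPM in Tbx1+/- Purkinje nuclei, on 317 UMIs. The GABA.interneuron.progenitor type was at 155 ± 32.3 CPM (SD, n = 4) and was higher than Purkinje nuclei in 4 of 4 libraries. Meningeal cells at 68.7 ± 11.5 CPM (SD, n = 4), Progenitors at 51.9 ± 29.3 CPM (SD, n = 4) and GNPs at 35.5 ± 4.74 CPM (SD, n = 4) also had higher means, and GNPs were above Purkinje nuclei in 3 of 4 libraries.

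The levels per nucleus were compared at equal depth, with each nucleus thinned at random to 2000 UMIs. Of the 1299 Purkinje nuclei, 7 were shallower and were left out. A UMI of Itpr1 was found in 99.0% of Purkinje nuclei, of Car8 in 97.4%, of Rora in 95.1%, of Foxp2 in 80.9%, of Calb1 in 79.0%, of Pcp4 in 71.4%, of Pcp2 in 40.6%, of Skor2 in 23.8% and of Ebf2 in 4.26%. By library the share ran from 76.8% to 83.0% for Foxp2, from 76.3% to 83.6% for Calb1 and from 56.6% to 83.3% for Pcp4. Their order differed between libraries. For Pcp2 the range was 35.3% to 48.3%. Without thinning, the shares were 99.6% for Itpr1 and Car8, 99.5% for Rora, 89.1% for Foxp2, 94.1% for Calb1, 95.1% for Pcp4, 74.9% for Pcp2, 60.4% for Skor2 and 11.6% for Ebf2. Differentiated granule neurons are given beside them at the same thinned depth. They had a UMI of Skor2 in 0.0959%, of Itpr1 in 7.25%, of Car8 in 6.90%, of Foxp2 in 4.62%, of Calb1 in 10.9%, of Pcp2 in 10.2% and of Pcp4 in 41.7% of nuclei. By library these ran from 6.40% to 16.8% for Calb1, from 4.61% to 15.8% for Pcp2 and from 23.8% to 59.8% for Pcp4. The shares of Calb1, Pcp2 and Pcp4 were much the same in astroglia, at 10.9%, 10.1% and 40.2%, and in oligodendrocytes, at 9.76%, 10.8% and 37.6%. In the immune type a Skor2 UMI was found in 0 of 287 thinned nuclei, which allows up to 1.05% of nuclei with a UMI at this depth and sets no limit on nuclei that express the gene. Unthinned, 4 of 385 immune nuclei (1.04%) had one. Pcp4 was found in 35.9% of the thinned immune nuclei. Rora, in contrast, was found in 90.9% of astroglia and 49.9% of granule neurons. At this depth most Purkinje nuclei carried 5 (23.8%), 6 (37.9%) or 7 (22.7%) of the 9 genes, none carried fewer than 3, and 3 nuclei carried all 9.

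Purkinje nuclei differed among themselves in Foxp2. For a split by Foxp2 the 1292 nuclei were thinned to 2000 UMIs a second time, in another random draw than that behind the shares, and 1049 then had a Foxp2 UMI and 243 had none (1045 had one in the first draw), and both sets occurred in each library (51 to 67 nuclei without). The depths of the sets were alike, with medians of 5675 to 8556 and 5584 to 8677 UMIs per library. The split was drawn after the data were seen and is a range of detection and not a cell type, and the values are given as a description without a test. Foxp2 itself, on which the split was made, was at 2362 against 227 CPM.

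Rora went with Foxp2. In nuclei without a Foxp2 UMI it was at 3448 and 2611 CPM in WT and at 2503 and 2287 CPM in Tbx1+/- libraries, and in nuclei with one at 7776 and 9497 CPM and at 9091 and 8408 CPM. The sets did not overlap over the 4 libraries, and the ratio of the means was 3.20. Pcp4 (ratio 1.52) and Itpr1 (1.34) were also higher with Foxp2 in 4 of 4 libraries. Pcp2 went the other way, at 462 ± 85.8 CPM (SD, n = 4) without and 273 ± 55.9 CPM (SD, n = 4) with Foxp2, as did Calb1 at 1215 ± 114 CPM (SD, n = 4) and 946 ± 77.1 CPM (SD, n = 4), both in 4 of 4 libraries. Car8 (ratio 1.06), Skor2 (0.869) and Ebf2 (0.600) did not keep 1 direction over the 4 libraries. Markers of other cell types, summed over all lists, were at 547 ± 101 CPM (SD, n = 4) with and 569 ± 157 CPM (SD, n = 4) without Foxp2, with no order that all libraries shared.

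Among 41 further genes of Purkinje biology listed for this report, 10 were higher with Foxp2 in 4 of 4 libraries and 8 were lower. Of those with at least 20 CPM in Purkinje nuclei, 9 of 31 (29.0%) were higher and 7 (22.6%) lower, beside 18.5% and 12.5% of all 7321 genes at that level. Ppp1r17 was at 5.31 ± 3.26 CPM (SD, n = 4) with and 58.4 ± 11.8 CPM (SD, n = 4) without Foxp2. Plcb4, a phospholipase C, was at 411 ± 104 CPM (SD, n = 4) and 1210 ± 180 CPM (SD, n = 4). On the other side, the transcription factor Tfap2a was at 60.1 ± 3.82 CPM (SD, n = 4) with and 14.1 ± 4.50 CPM (SD, n = 4) without Foxp2, the forkhead gene Foxp1 at 285 ± 15.4 CPM (SD, n = 4) and 142 ± 39.6 CPM (SD, n = 4), Gad2, which makes GABA, at 181 ± 18.4 CPM (SD, n = 4) and 81.2 ± 9.28 CPM (SD, n = 4), and the glutamate transporter Slc1a6 at 412 ± 10.8 CPM (SD, n = 4) and 215 ± 12.2 CPM (SD, n = 4). These 6 genes were named after their values were seen.

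**Figure D3:**
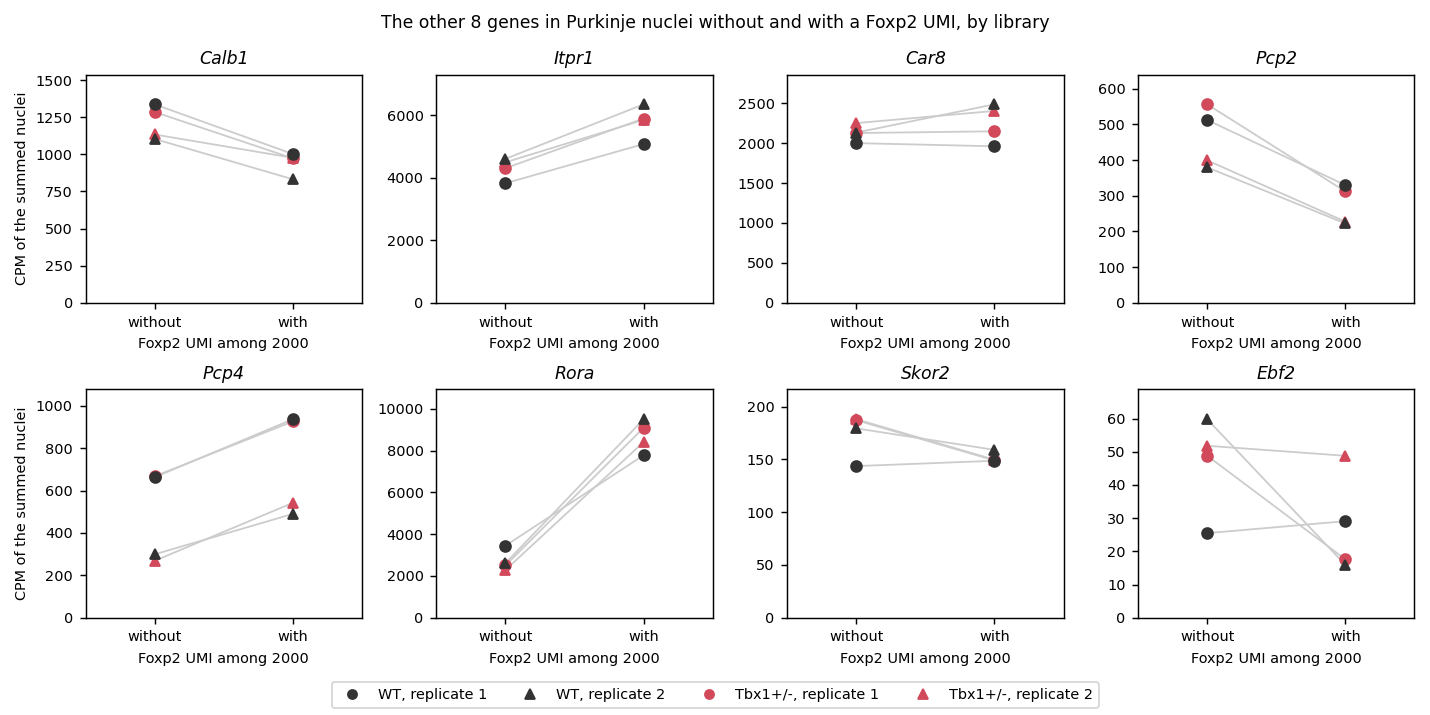
CPM of the other 8 genes in the summed Purkinje nuclei without and with a Foxp2 UMI among 2000, per library, with grey lines joining the values of 1 library. Rora, Pcp4 and Itpr1 are higher and Pcp2 and Calb1 lower with Foxp2 in all 4 libraries, and for Rora the means are 2712 and 8693 CPM.

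The other listed genes place the 9 in their pathways. Of the 41, 18 were highest in Purkinje nuclei. At 20 CPM or more it was 16 of 31, beside 8.18% of all 7321 genes at that level, and the listed genes were picked as Purkinje genes. They included 7 of 12 glutamate and calcium signalling genes (among them Homer3, Atp2a2 and Inpp5a), 3 of 3 genes known to depend on Rora (among them Shh and Slc1a6), and 2 of 3 reelin reception genes (Dab1 and Vldlr). Slc1a6 was 15.1-fold and Dab1, the adaptor that reelin receptors signal through, 6.45-fold above the next type. Of 12 lineage transcription factors, Esrrb, Foxp4 and Ebf1 were highest in Purkinje nuclei, and Esrrb was 10.4-fold above the next type. None of the 3 GABA transmission genes was, and of the stripe markers Plcb3 and Gabbr2 were, by 1.05-fold and 1.07-fold. Aldoc, the zebrin antigen of adult stripes, was at 4.15 ± 3.33 CPM (SD, n = 4) in Purkinje nuclei at this age.

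Over the 16 types, the 10 genes most like the mean profile of the 9 were Gm12992, Gm36669, Id2, Inpp5a, Zfp385c, Gm44040, Il22, March2, Itpka and Gm11906, by Pearson's r of log2(CPM + 1) among 7321 genes of at least 20 CPM in Purkinje nuclei. Their r lay between 0.850 and 0.919 over 16 types that share libraries. Itpka, an IP3 kinase, and Inpp5a, an IP3 phosphatase, act on the ligand of the Itpr1 receptor, and Gm44040 overlaps Itpr1 itself. Of the 9, each set against a mean that includes it, Calb1 had the highest Pearson's r, at 0.950, and Ebf2 the lowest, at 0.377. Itpr1 was first by Spearman's rho, at 0.879 against 0.806 for Calb1, and Ebf2 again last at 0.509. By Spearman's rho, 2 of the 10 remained among the 10 most alike.

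The comparison of genotypes asked whether Purkinje cells of the PF/F differ in these genes when 1 copy of Tbx1 is lost. None of the 9 was called, and the WT and Tbx1+/- libraries overlapped for each. Over all genes the test called 1 of 12851 (0.00778%), and 23.2% of genes had groups that did not overlap. With edgeR's quasi-likelihood test on the summed UMIs, the log2 change in Tbx1+/- against WT ranged from 0.02 for Rora to 0.59 for Ebf2, with adjusted p of 1.00 for all 9. For Calb1 it was 0.09 ± 0.24 (SE), with a 95% interval of -0.45 to 0.63. For Itpr1 the interval ran from -0.66 to 0.79, for Car8 from -0.57 to 0.70, for Pcp2 from -0.53 to 0.58, for Pcp4 from -0.66 to 0.80, for Rora from -0.74 to 0.77, for Foxp2 from -0.60 to 0.78 and for Skor2 from -0.41 to 0.48. A doubling or halving of the measured level (1 on the log2 scale) lay outside the intervals of these 8 genes. That level includes any free RNA, and Pcp4 was at 310 CPM in differentiated granule neurons against 676 CPM in Purkinje nuclei. The interval of Pcp4 therefore sets no such limit on the part above the granule neuron level. Ebf2, at 0.59 ± 0.31 (SE), had an interval from -0.10 to 1.28, and its batches went opposite ways, from 28.3 to 24.2 CPM in the replicate 1 and from 23.5 to 49.2 CPM in the replicate 2 libraries. With the batch as a replicate block, the 9 changes lay between 0.03 and 0.58 and none was called (lowest adjusted p of 0.999, edgeR), while the count over all genes was 3.

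**Figure D4:**
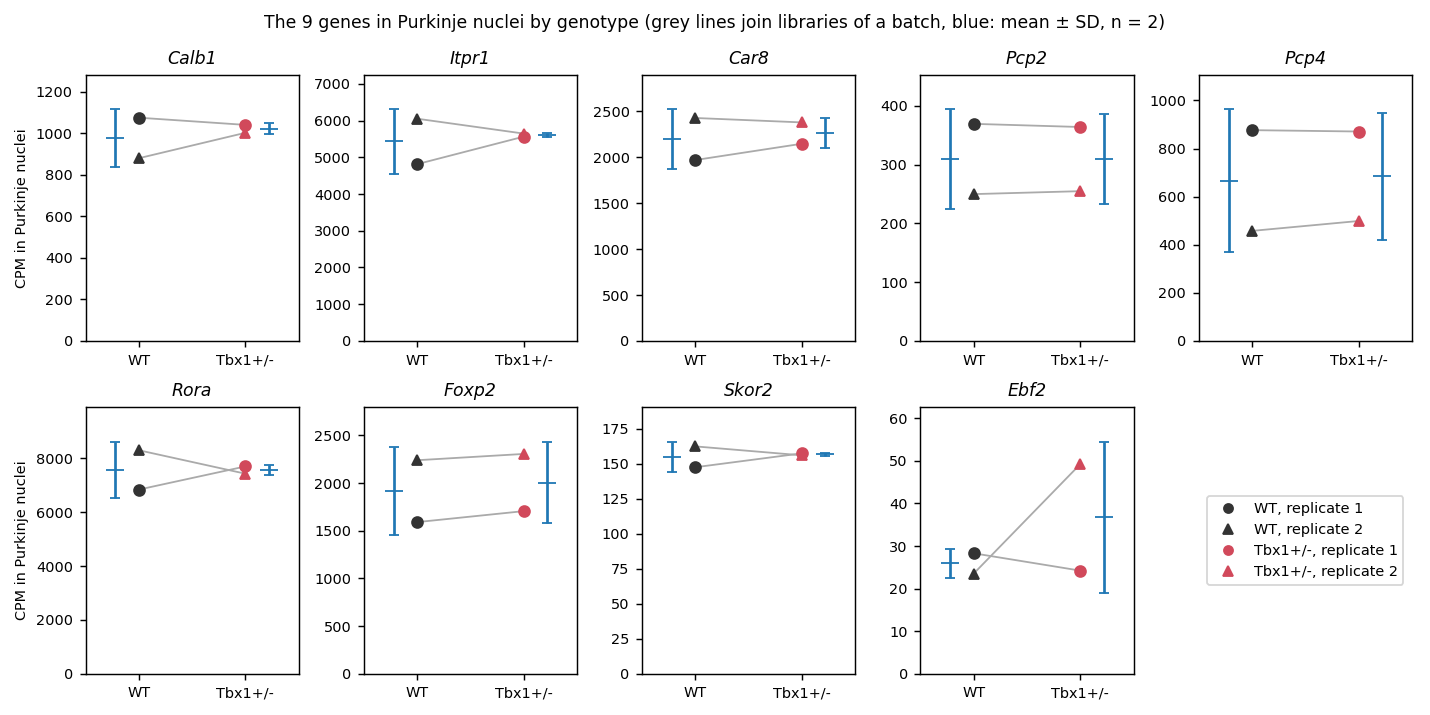
CPM of the 9 genes in Purkinje nuclei of WT and Tbx1+/- libraries on axes that start at 0, with grey lines joining libraries of a batch and blue bars giving the mean ± SD of 2 libraries. The genotypes overlap for each gene, and for Pcp2, Pcp4 and Foxp2 the lines run nearly flat while the batches stand apart.

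The 1 gene called in Purkinje nuclei was Ttr, which encodes transthyretin and is made by the choroid plexus. It was at 26.3 and 25.9 CPM in WT and at 89.4 and 111 CPM in Tbx1+/- Purkinje nuclei, a log2 change of 1.97 ± 0.22 (SE, edgeR adjusted p = 0.0256). Over the alternatives that called it, the adjusted p ranged from 6.77e-16 with the replicate block to 0.0434 with unannotated Skor2 barcodes added, and it was not called without the 8% of nuclei with the highest UMIs. That alternative left 142, 117, 113 and 183 of the Purkinje nuclei, with a log2 change of 1.97 ± 0.42 (SE, edgeR adjusted p = 1.00). In 14 of the 15 other types both Tbx1+/- libraries were above both WT libraries as well, with ratios of 2.25 to 3.35 between the genotype means over the 15 types, and the highest levels were in the early rhombic lip type (RL.early). The choroid plexus markers as a list (Ttr, Kl and Folr1) summed to 27.5 to 27.8 CPM in WT and 91.7 to 112 CPM in Tbx1+/- Purkinje nuclei, nearly all of it Ttr itself, with Folr1 at a mean of 1.66 CPM and Kl at 0 UMIs. No other list of cell type markers held a called gene in Purkinje nuclei. The summed markers of 3 other lists were higher in both Tbx1+/- libraries, at 100 to 107 against 76.2 to 88.4 CPM for erythroid, 12.9 to 16.7 against 6.06 to 7.98 CPM for meningeal and 27.1 to 30.0 against 21.2 to 22.3 CPM for immune markers. The sums of the remaining marker lists overlapped between the genotypes. Among single genes in Purkinje nuclei, 23.2% had groups that did not overlap, in either direction. The part of free choroid plexus RNA in the Ttr result was not tested.

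The 41 further genes of Purkinje biology gave 0 calls among the 38 tested, with log2 changes from -0.24 to 0.51 and a median of 0.07, against a median of 0.00 over all genes tested. The summed GABA transmission genes (Gad1, Gad2 and Slc32a1) were at 251 to 277 CPM in WT and at 296 to 301 CPM in Tbx1+/- libraries, which do not overlap, and none of the 3 was called. The sums of the other 6 lists overlapped between the genotypes, and among single genes 23.2% had groups that did not overlap. At an unadjusted p under 0.05 (edgeR), 138 of the 12851 genes passed in Purkinje nuclei, and DESeq2 called 1. The 138 are fewer than evenly spread p-values would give, as were the counts in the other sums tested. The edgeR p-values were thus conservative, and a lack of calls does not show a lack of change.

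In differentiated GABA interneurons and differentiated granule neurons, 8 of the 9 genes passed the filter on low counts, Skor2 being too sparse. None of the 8 was called in either, beside 0% of 13908 and 0% of 17091 genes (111 and 106 genes at an unadjusted p under 0.05, edgeR, and 0 with DESeq2 in both). Rora in the interneurons was at 4386 and 5601 CPM in WT and at 5482 and 5094 CPM in Tbx1+/- libraries. In granule neurons this depended on the library WT replicate 1. Without it, Pcp2 (log2 change of 1.26, edgeR adjusted p = 1.29e-05) and Pcp4 (1.10, adjusted p = 0.0279) were called there among 39 of 17717 genes (0.22%). That fit sets 1 WT library of replicate 2 against Tbx1+/- libraries of both batches. In the sum of all annotated PF/F nuclei none of the 9 was called either, beside 0% of 20756 genes (99 at an unadjusted p under 0.05, edgeR, and 0 with DESeq2). Ebf2 was the 1 gene of the 9 whose groups did not overlap there, at 19.1146 and 20.1853 CPM in WT and 18.4911 and 19.1105 CPM in Tbx1+/- libraries. These groups all but touched, and 17.9% of genes had groups that did not overlap. In such a sum, fewer cells of a type and less RNA per cell cannot be told apart. Of the Ebf2 UMIs in it, 9.47% lay in Purkinje nuclei.

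Purkinje nuclei made up 2.44% and 3.24% of annotated nuclei in the WT and 2.22% and 3.05% in the Tbx1+/- libraries. The difference of -0.21 percentage points was smaller than the difference between batches (exact two-sided permutation test, p = 0.667, where 2 libraries against 2 cannot give a p below 0.33). Within the batches the differences were -0.221 and -0.197 percentage points, of 1 sign. The deepest annotated nucleus held 11236 and 14501 UMIs in the WT and 8859 and 15658 UMIs in the Tbx1+/- libraries, and the deepest Purkinje nucleus held 10378, 14454, 8443 and 14177 UMIs in the same order. The authors left out outliers in UMI count. Above the deepest annotated nucleus lay 54 and 59 unannotated barcodes with Skor2 in the WT and 72 and 52 in the Tbx1+/- libraries. These barcodes do not enter the share, and their part in it was not tested.

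In the annotated nuclei of the PTB the 9 genes ranged from near 0 to levels above those of Purkinje nuclei. Calb1, Pcp2 and Skor2 were near 0, with a highest mean over the 15 PTB types of 6.42, 0.660 and 0.466 CPM. The PTB annotation used here covers 31076 nuclei of connective tissue, chondrocyte, osteoblast and osteoclast types, while the study's bone nuclei also included neurons and immune cells. The 32101 barcodes outside it held more of Skor2, at 6.27 ± 2.07 CPM (SD, n = 4) on 891 UMIs, and of Calb1, at 13.2 ± 2.15 CPM (SD, n = 4) on 1911 UMIs. Over all annotated nuclei, Skor2 was at 0.204 CPM in the PTB and at 8.93 CPM in the PF/F. Pcp4 reached 59.1 ± 14.5 CPM (SD, n = 4), below its level in each of the 16 PF/F types. Car8 reached 202 ± 36.7 CPM (SD, n = 4) in matured chondrocytes, and Itpr1 872 ± 75.8 CPM (SD, n = 4) in matured osteoblasts/osteocytes. The transcription factor genes were broadly present. Rora reached 3428 ± 389 CPM (SD, n = 4) in the type labelled CP6, and Foxp2 2835 ± 362 CPM (SD, n = 4) in CT3, where 4 of 15 PTB types had a higher mean than Purkinje nuclei. Ebf2 was above its Purkinje level in 15 of 15 PTB types, from 42.9 ± 5.63 CPM (SD, n = 4) in matured chondrocytes to 833 ± 89.1 CPM (SD, n = 4) in CP6. Levels across the tissues are set side by side without a test.

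**Figure D5:**
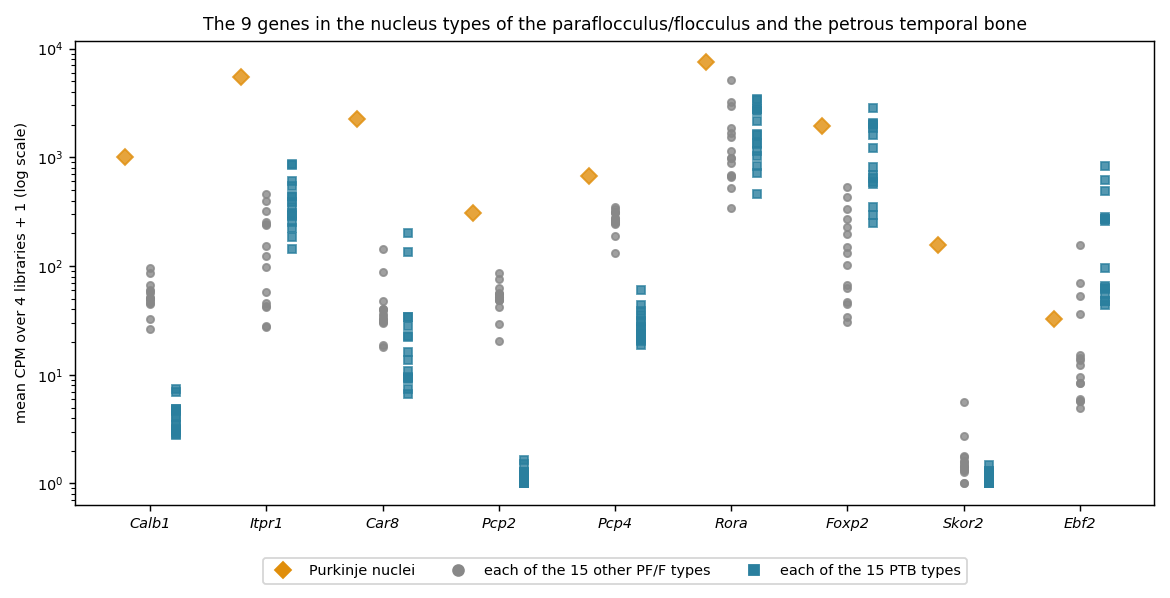
Mean CPM + 1 over 4 libraries, on a log axis, of each gene in Purkinje nuclei (orange diamonds), in each of the 15 other PF/F types (grey circles) and in each of the 15 PTB types (blue squares). Calb1, Pcp2 and Skor2 are near 0 in the annotated PTB types, with highest means of 6.42, 0.660 and 0.466 CPM, while Foxp2 and Ebf2 exceed their Purkinje level in 4 and 15 PTB types.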

How the data were processed

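Nuclei of the PF/F and the PTB were sequenced in 8 libraries with 3′ droplet chemistry. The authors deposited UMI counts, not normalized, from Cell Ranger 7.0.0 run on mm10 with introns included. Their quality limits and SoupX correction came afterwards and are absent from the deposited counts. The annotated nuclei used here had passed those limits. They left out nuclei with few genes and outliers in UMI count, gene count or mitochondrial reads. Cell types are those of the authors' annotation, made by Louvain clustering, label transfer and manual curation. Doublet removal is not described in the sources used here, and none was done. As an alternative the deepest 8% of nuclei of each library were dropped, which left 142, 117, 113 and 183 Purkinje nuclei.

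UMIs were summed per library and type. Genotypes were compared with edgeR 4.0.16 (filterByExpr, TMM, quasi-likelihood test, R 4.3.3) in 4 comparisons, calling genes at an adjusted p (Benjamini-Hochberg) under 0.05 and a change above 1.5-fold. SE was derived from the log2 change and the F statistic. With mice pooled, p-values measure the spread between libraries. The scripts were tested on simulated data. Alternatives were RLE factors, no filter, DESeq2 1.42.0, a replicate block and leaving out each library. With a library dropped, the spread of its genotype came from the other genotype alone. The study describes 2 batches of mice per genotype, the second in a separate experiment, and the replicate number was taken here as the batch. Deviations of same-numbered libraries from their genotype means correlated across genes (which are not independent) at 0.365 in Purkinje nuclei. Each of the 2 thinnings used a fixed seed of its own. Python 3.11.15, numpy 2.4.6, pandas 2.3.3, scipy 1.17.1 and matplotlib 3.10.9 were used, and coordinates are from GENCODE on GRCm38. Limits at 0 counts cover counting error only.

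The 9 genes, the gene lists and the alternatives were chosen with earlier results of these data known, and the split by Foxp2 and the AGGTCA search after the data were seen. Named are the 9 genes, the listed genes, the 10 genes most like the 9, and up to 5 called genes per comparison with the smallest p that moved alike in both batches. Some listed genes are counted but not reported here by name.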

Additional observations from a re-analysis of the deposited data

Results flagged for a closer look

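Barcodes outside the authors' annotation, which entered no comparison of types and only an alternative of the genotype test, also held Skor2. Of 9721 unannotated PF/F barcodes, 359 had at least 1 Skor2 UMI, 84 and 80 in the WT and 114 and 81 in the Tbx1+/- libraries, or 2.75% to 5.59% of them. Among annotated nuclei of other types the share was 0.142% to 0.192% per library, and among Purkinje nuclei it was 52.1% to 66.9%. Of the 359, 237 lay above the UMI count of the deepest annotated nucleus of their library, where 17.8% to 27.8% of 1040 barcodes had Skor2. The 359 barcodes were chosen on Skor2, so its level in them is no result. Summed per library, they held Itpr1 at 3588 to 6787 CPM, Car8 at 1291 to 2463 CPM, Rora at 5357 to 9206 CPM, Foxp2 at 1234 to 2332 CPM, Calb1 at 626 to 976 CPM and Ebf2 at 31.0 to 48.4 CPM. Pcp2 was at 220, 159, 283 and 136 CPM and Pcp4 at 524, 432, 683 and 353 CPM in the WT and then the Tbx1+/- libraries, both below the annotated Purkinje nuclei in 4 of 4 libraries. Their median UMI count was 9459 to 17394 per library. Depth moves with this result, and the part of doublets and of large Purkinje nuclei in it was not tested.

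Barcodes outside the annotation of the PTB held 891 Skor2 UMIs, at 4.32 to 8.54 CPM in the 4 libraries, against 30 UMIs and 0.114 to 0.418 CPM in the annotated PTB nuclei. The PTB annotation used here covers connective tissue, chondrocyte, osteoblast and osteoclast types, and the study's bone nuclei also included neurons and immune cells, so part of these barcodes were typed in the study. Which they are was not analysed here.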

How the results depend on the processing

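The 8 genes that were highest in Purkinje nuclei remained 8 with each nucleus weighted equally and without the 8% of nuclei with the highest UMIs, and none of 18 recomputed ratios to the next type changed sign. Without those nuclei the log2 ratio to the next type was 0.20 for Rora (0.56 with them) and 7.60 for Skor2 (5.06), whose other types hold few UMIs. In Purkinje nuclei none of the 9 genes was called under any alternative run (lowest adjusted p of 0.926), and of 90 recomputed changes 76 kept their sign. Without the nuclei with the highest UMIs, the log2 change of Pcp2 was -0.031 and that of Ebf2 -0.18, and 0 genes were called over all genes.

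With the replicate block the calls over all genes were 3 in Purkinje nuclei (Egfem1, Rnf121 and Ttr) and 3 in differentiated GABA interneurons (Ptgds, Ttr and Il1rapl2), genes chosen after their values were seen outside Ttr, and no call of the 9 genes changed. Without the filter 1 gene (Ttr) was called in these interneurons. With the unannotated barcodes that hold Skor2 added, an alternative chosen after the data were seen, 5 genes were called in Purkinje nuclei (Fn1, Mecom, Flt1, Slco1c1 and Ttr). By Spearman's rho 2 of the 10 most alike genes were shared.

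Leaving out 1 library at a time gave 1 to 19 calls in Purkinje nuclei, 1 to 10 in differentiated GABA interneurons and 0 to 39 in differentiated granule neurons, each time with the most calls without WT replicate 1. Among the 9 genes 0 to 2 were called in granule neurons. In Purkinje nuclei the log2 change of Itpr1 then ranged from -0.15 to 0.30, of Car8 from -0.14 to 0.28, of Pcp2 from -0.22 to 0.26, of Pcp4 from -0.35 to 0.53, of Rora from -0.17 to 0.22, of Foxp2 from -0.19 to 0.42, of Skor2 from -0.087 to 0.17 and of Ebf2 from -0.10 to 0.98. The difference in the share of Purkinje nuclei then ranged from -0.62 to 0.21 percentage points, since dropping a library leaves the batches unbalanced, while with the replicate block it was -0.209. In the other 3 sums, 53 of 225 recomputed changes of the 9 genes changed sign. The cause was not tested. Skor2 outside Purkinje nuclei and Ebf2 within them rested on few UMIs.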
